A study of Mus musculus with 221 samples.

Results

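The nuclear-encoded genes of the mitochondrial respiratory chain were described in single cells of the embryonic mouse neocortex. Members were chosen by name, as rows whose symbol marks a subunit of complexes I to V (Nduf, Sdh, Uqcr, Cyc1, Cox4 to Cox8 and Atp5 symbols), and by detection in at least 10 of 221 cells. Of 23244 features, 91 had such a symbol and 84 of these passed the detection rule. They comprise 36 subunits of complex I, 4 assembly factors of complex I, 4 subunits of complex II, 9 of complex III, 13 of complex IV and 15 of complex V. The other 3 are Atp5s and Atp5sl, named after ATP synthase but not among its subunits, and Cox4nb, which the name rule catches although it encodes a subunit of a membrane complex of the endoplasmic reticulum. The rule itself uses no measured level beyond detection, but the members were chosen with earlier results of these data known. Cox7a1 (11 cells) and Ndufs5 (13 cells) passed the detection rule narrowly, and Cox6b2 (9 cells) and Cox4i2 (8 cells) missed it narrowly.

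The donors were C57BL/6J mouse embryos at E18.5, whose medial neocortex was dissected in 2 pools of 8 neocortices each, with no treatment or genetic change named. Of the 221 cells 99 came from pool 2 and the others from pool 1, captured one by one on a microfluidic chip (Fluidigm C1) and sequenced from full-length cDNA. Each pool mixes animals, so no value belongs to a single embryo. The cells are labelled female, but Eif2s3y, a Y-linked gene, was above the floor in 42 cells of pool 1 and 30 of pool 2. Levels are in TPM, transcript abundance corrected for transcript length and scaled to 1000000 in each cell. No value is 0: features without signal share the lowest value of their cell, 1.33 to 3 TPM, called the floor here, and a gene was counted as detected above it. Read numbers are not used here, so sequencing depth is unknown. Cells had 2146 to 6727 genes above the floor.

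The respiratory chain passes electrons from food molecules to oxygen in the inner mitochondrial membrane. Complex I takes them from NADH and complex II from succinate, ubiquinone carries them to complex III, cytochrome c carries them on to complex IV, and the proton gradient built on the way drives ATP synthesis by complex V. A few subunits are encoded by mitochondrial DNA and the rest by nuclear genes, and in the cortex neural progenitors are known to lean more on glycolysis and neurons more on oxidative phosphorylation.

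Cell classes were built from marker genes that contain no member. Progenitor-like cells numbered 37 (20 in pool 1 and 17 in pool 2), excitatory neuron-like cells 143 (85 and 58) and interneuron-like cells 27 (16 and 11). The 14 remaining cells, 13 of them led by globin transcripts, were left out. The progenitor-like class holds 4 clusters. Cluster 1, of 16 cells, was named radial glia-like and had a median of 56.9 TPM of Neurod6, a marker of excitatory neurons. Its medians were 431 TPM in pool 1 and 15.5 in pool 2, and 7 of the 16 cells had 100 TPM or more. They are called cluster 1 radial glia-like cells below. The other 21 cells had a median of 1300 TPM of Neurod6 and form a cluster of 11 cells, also named from radial glia markers, and clusters of 6 and 4 cells named from intermediate progenitor markers. Eomes, an intermediate progenitor marker, was above the floor in 17 of these 21 cells and in 2 of the 16. The interneuron-like class had Gad1, which makes the transmitter GABA, above the floor in 19 of 27 cells. Neurod6 was also above the floor in 24 of these 27, at 100 TPM or more in 13, with a median of 95.2 TPM (1910 TPM in the excitatory class), and marker gates applied cell by cell placed 14 of the 27 among interneurons, 2 among excitatory neurons and 11 in no class. All 9 lists of markers of other cell types had a median summed level of 0 TPM above the floor in every class. Oligodendrocyte precursor markers (5 genes) were above the floor in 17 of 37 progenitor-like (up to 2220 TPM in sum), 17 of 143 excitatory neuron-like and 3 of 27 interneuron-like cells. Astrocyte markers (3 genes) were so in 12 (up to 493 TPM), 6 and 0 cells, and pericyte markers (5 genes) in 5, 15 and 0. Endothelial markers (6 genes) were so in 0, 3 and 0 cells, meningeal markers (5 genes) in 0, 1 and 0, microglial markers (8 genes) in 2, 5 and 1, Cajal-Retzius markers (4 genes) in 2, 6 and 5, and choroid and ependymal markers (2 genes) in 1, 2 and 0. The summed level of 5 globin and erythroid markers had a median of 0 TPM above the floor in all classes, with maxima of 4510 TPM in progenitor-like, 861 in excitatory neuron-like and 1720 in interneuron-like cells. The number of detected genes differed between the classes: the median number of genes above the floor was 4638 in progenitor-like, 4035 in excitatory neuron-like and 3409 in interneuron-like cells. Cell names carry a suffix A or B whose meaning the labels do not give, and the classes were uneven in it. Suffix A was that of 27 of 37 progenitor-like, 85 of 143 excitatory neuron-like and 10 of 27 interneuron-like cells. The part of these markers, of the suffix and of the number of detected genes in the results below was not tested. Values from cells of 3000 to 5000 genes above the floor, a range set after seeing the data, are given for the called members named and for the complex medians that moved.

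Promoter sequences are shown for the members on which the class comparisons turn, Ndufs8 and Ndufc2, for the 3 genes of ATP synthase subunit c (Atp5g1, Atp5g2 and Atp5g3), and for Ndufaf4. Ndufaf4, an assembly factor of complex I, is shown for an NRF1 match clear of annotated untranslated bases. They are RefSeq sequences on GRCm38.p6, read toward the transcription start, in lower case with motif matches in capitals. Bases that GENCODE marks as untranslated in any transcript were left out, which shortens Atp5g1 by 39 bases and Atp5g2 by 80.
Ndufs8: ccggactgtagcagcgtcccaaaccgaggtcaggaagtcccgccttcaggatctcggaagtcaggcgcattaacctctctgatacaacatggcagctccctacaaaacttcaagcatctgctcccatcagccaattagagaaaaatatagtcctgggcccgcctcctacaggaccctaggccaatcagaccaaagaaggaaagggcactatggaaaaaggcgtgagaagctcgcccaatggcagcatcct
Ndufc2: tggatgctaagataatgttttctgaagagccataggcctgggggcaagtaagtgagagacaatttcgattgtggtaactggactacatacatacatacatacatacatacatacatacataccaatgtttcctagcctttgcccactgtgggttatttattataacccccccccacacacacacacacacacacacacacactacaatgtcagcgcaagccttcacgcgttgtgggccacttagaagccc
Atp5g1: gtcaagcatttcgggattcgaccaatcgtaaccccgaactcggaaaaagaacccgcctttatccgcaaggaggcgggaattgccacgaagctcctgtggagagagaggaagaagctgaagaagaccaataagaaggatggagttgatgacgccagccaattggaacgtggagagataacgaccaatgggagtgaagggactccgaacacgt
Atp5g2: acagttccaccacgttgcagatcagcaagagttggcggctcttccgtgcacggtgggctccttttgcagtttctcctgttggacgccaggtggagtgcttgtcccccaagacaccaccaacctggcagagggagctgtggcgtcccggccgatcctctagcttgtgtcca
Atp5g3: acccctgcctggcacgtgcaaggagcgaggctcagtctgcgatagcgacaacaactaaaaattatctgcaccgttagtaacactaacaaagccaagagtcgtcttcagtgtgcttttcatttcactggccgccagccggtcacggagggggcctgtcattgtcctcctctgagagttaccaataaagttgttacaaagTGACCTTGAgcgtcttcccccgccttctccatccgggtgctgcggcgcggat
Ndufaf4: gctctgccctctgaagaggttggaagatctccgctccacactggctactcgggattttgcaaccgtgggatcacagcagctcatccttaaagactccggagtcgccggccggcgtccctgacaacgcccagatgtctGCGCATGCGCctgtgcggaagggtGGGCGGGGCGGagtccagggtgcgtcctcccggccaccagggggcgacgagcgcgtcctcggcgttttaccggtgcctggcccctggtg
The Ndufs8 window lies at chr19:3912775-3913024 on the minus strand and the Ndufc2 window at chr7:97399753-97400002 on the plus strand, and neither holds any of the motifs searched. The windows of Atp5g1 (chr11:96075671-96075881), Atp5g2 (chr15:102671128-102671297) and Atp5g3 (chr2:73911327-73911576) lie on the minus strand and that of Ndufaf4 (chr4:24897833-24898082) on the plus strand. Capitals mark a match to the ERR motif TNAAGGTCA in Atp5g3, 52 bases before the start, and to NRF1 and to Sp1 (GGGCGG) in Ndufaf4. Atp5g2 has an NRF1 match 42 bases before its start, in the bases not printed.

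Motifs of factors known to act on respiratory genes were searched in the members' promoters. RefSeq windows from 250 bases before to 50 after the start were matched for 71 of the 84 members, which gave 77 windows, and both strands were searched. NRF1, a factor named for its role in respiratory gene expression, has a motif that was found in 19 of 77 windows (24.7%), against 4.6% of 32851 promoters of all genes and 6.38% of 21262 promoters of protein-coding genes. The ETS core CCGGAAG, to which GABP binds, was in 17 of 77 windows (22.1%), against 11.6% of protein-coding promoters. The YY1 motif was in 7 windows (9.09%, against 1.21%), the ERR motif in 3 (3.9%, against 1.03%) and the cyclic AMP response element TGACGTCA in 4 (5.19%, against 2.23%). The Sp1 motif was in 32 windows, 41.6% against 46.2%. Windows of one member can share a site: counted by member, of 71, NRF1 had 18, the ETS core 17, YY1 6, ERR 3, the cyclic AMP response element 4 and Sp1 31. By complex, NRF1 matches were in 8 of 34 windows of complex I, 2 of 3 of complex II, 1 of 5 of complex III, 1 of 11 of complex IV and 6 of 17 of complex V. These are matches of letters and were not related to the levels. No window was found for 13 members, among them Atp5a1, Cox4i1, Cox4nb, Cox6c, Cyc1, Ndufa2, Ndufb9, Ndufs1, Sdhc, Uqcrb, Uqcrc2 and Uqcrq.

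The 84 genes together held about 6% of all transcripts in every class. Their share of TPM was 5.91% in pool 1 and 6.16% in pool 2 for progenitor-like cells, 5.64% and 5.63% for excitatory neuron-like cells, and 6.67% and 5.89% for interneuron-like cells. Excitatory neuron-like cells had the lowest share in both pools, and the interneuron values lay above and below both progenitor values. Single cells ranged from 4.18% to 8.55% in progenitor-like (median 5.78%), from 3.84% to 7.72% in excitatory neuron-like (5.64%) and from 5.01% to 9.29% in interneuron-like cells (6.01%), so the classes overlapped almost throughout. Complex I held 2.19% and 2.25% in progenitor-like, 2.03% and 2.01% in excitatory neuron-like and 2.37% and 2.07% in interneuron-like cells. Complex IV held 1.49% and 1.57%, 1.46% and 1.45%, and 1.91% and 1.61% in the same order, with both interneuron values above all others. Complex II was the smallest, with 0.183% and 0.174%, 0.179% and 0.171%, and 0.166% and 0.159%. Complex V held 1.34% and 1.42%, 1.28% and 1.33%, and 1.45% and 1.38%, and complex III 0.648% and 0.695%, 0.644% and 0.632%, and 0.729% and 0.641%. Shares were described without a test, because a sum over chosen members is a score.

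**Figure D1:**
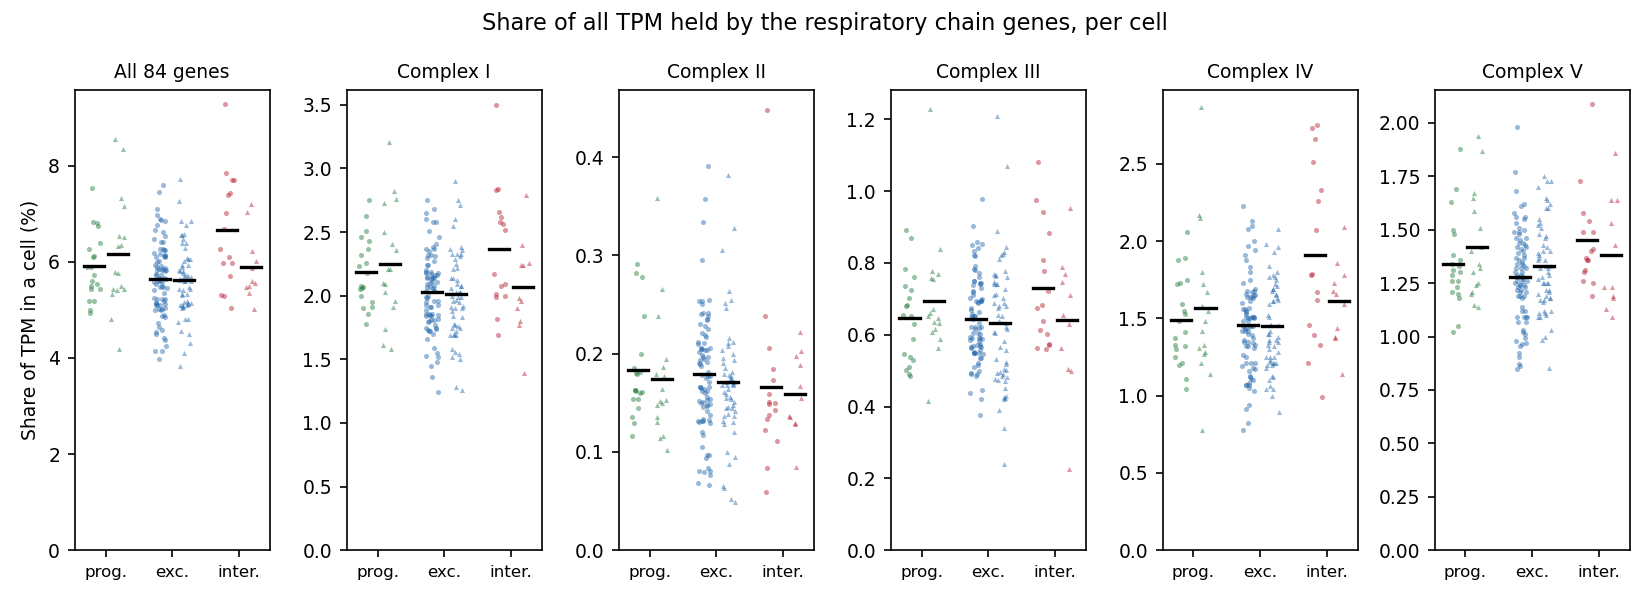
Share of all TPM held by the respiratory chain genes in each cell (percent, axes from 0), for the 84 genes together and for each complex, in progenitor-like (prog.), excitatory neuron-like (exc.) and interneuron-like (inter.) cells. Circles are cells of pool 1, triangles cells of pool 2, and black bars the mean of each pool; the cells of all classes overlap between about 5.01% and 7.72% for all 84 genes.

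Levels within a complex spread widely, although the subunits of a complex are assembled together. Complex IV had the highest typical level, with a median over its 13 genes of 1120 TPM, followed by complex V (842), complex III (619), complex I (449) and complex II (329). The highest member was Ndufa4, first described in complex I and now known as a complex IV subunit, with a mean of 2850 TPM over all cells. Cox6b1 and Cox4i1 of complex IV followed with 2460 and 2180 TPM, and Atp5b, the catalytic beta subunit of ATP synthase, had 2360 TPM. The highest members of the other complexes were Ndufa3 (complex I, 1500 TPM), Uqcrq (complex III, 1310 TPM) and Sdhb, the iron-sulfur subunit of complex II (944 TPM).

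Of these, Ndufa4 and Atp5b differed little across the classes. Ndufa4 had pool means of 2790 and 3070 TPM in progenitor-like, 2900 and 2740 in excitatory neuron-like and 3160 and 2680 in interneuron-like cells. Its cells ranged from 679 to 11000 TPM (median 2610), from 581 to 7220 (2620) and from 630 to 5700 (2670). The 3 classes overlapped fully, with a log2 difference of -0.00 ± 0.21 (SE, n = 2 pools) between progenitor-like and excitatory neuron-like cells and -0.03 ± 0.21 between interneuron-like cells and the same excitatory class. Atp5b likewise had pool means of 2320 and 2330, 2450 and 2280, and 2120 and 2110 TPM. Its interneuron values were the lowest, by 0.17 ± 0.22 on the log2 scale against excitatory neuron-like cells (adjusted p = 0.85). Means of the others differed more: Ndufa3 had 1740 TPM in progenitor-like and 1450 in both neuron classes, Cox4i1 2330, 2060 and 2560, and Cox6b1 2410, 2350 and 2920 in progenitor-like, excitatory neuron-like and interneuron-like cells, and none of these differences was called.

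Among isoforms known from muscle or other tissues, the widely expressed form was the one detected in most cells. Cox6a1 had a mean of 1860 TPM while Cox6a2, the heart and muscle form, was above the floor in 0 of 221 cells. Cox8a had 1500 TPM, and Cox8b and Cox8c were also above the floor in 0 cells. Cox7a2 had 875 TPM, while Cox7a1, the muscle form, was above the floor in 11 cells, with single values up to 243 TPM. Cox4i1 was above the floor in all 221 cells and Cox4i2, a form known from lung and low oxygen, in 8. Cox6b1 was likewise in all cells and Cox6b2, known from testis, in 9, and Ndufa4 stood beside Ndufa4l2 with 6 cells. Cox7a2l, a factor of supercomplex assembly related to Cox7a2, had 260 TPM and was detected in 183 cells.

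Class comparisons were made on mean log2(TPM + 1) per class and pool, with limma across 10690 genes. Cells of one class and pool weigh the same, and so do the pools of a class, whatever their numbers of cells. Calls required a Benjamini-Hochberg adjusted p under 0.05 together with a 2-fold or larger difference (1 log2 unit). Pools are the replicates, and since nothing says more of them, p-values rest on the spread between 2 pools. That spread was estimated jointly over all classes and moderated across genes, so a gene has the same SE in each class comparison.

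Between progenitor-like and excitatory neuron-like cells, 1 of 84 members was called, Ndufc2, which was higher in progenitor-like cells. Over all genes tested, 4.01% were called, and 3.38% were called higher in progenitor-like cells. On the log2 scale the pool values of the 2 classes did not overlap for 47 of 84 members, against 53.6% of all genes. The members' median log2 difference was 0.23, with 60 above 0 and 24 below, against a median of 0.04 over all genes, of which 53% were above 0. By complex the medians were 0.29 (I), 0.32 (II), 0.17 (III), 0.08 (IV) and 0.14 (V), and 0.88 for the 4 complex I assembly factors. At an unadjusted p below 0.05 there were 6 members higher and 3 lower, that is 9 of 84, where the share over all genes was 17.7%.

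Ndufc2, an accessory subunit in the membrane arm of complex I, lies at chr7:97400003-97407802 on the plus strand. Its mean level was 1710 TPM in pool 1 and 2330 in pool 2 for progenitor-like cells, 855 and 998 for excitatory neuron-like cells, and 1210 and 1350 for interneuron-like cells. Single cells ran from 452 to 6760 TPM (median 1810), from 2.03 to 2900 (844) and from 490 to 2260 (1140). Progenitor-like cells were highest in both pools, interneuron-like cells between, and no pool value of one class overlapped another. The log2 difference from excitatory neuron-like cells was 1.16 ± 0.27 (SE, n = 2 pools, adjusted p = 0.0378). Interneuron-like cells lay 0.67 ± 0.27 above excitatory neuron-like ones (adjusted p = 0.385), and progenitor-like cells 0.49 ± 0.27 above interneuron-like ones (adjusted p = 0.274). Within the progenitor-like class, the 16 cluster 1 radial glia-like cells had a mean of 2410 TPM and the other 21 cells 1680 TPM. Against excitatory neuron-like cells these 16 cells alone differed by 1.47 ± 0.28 (adjusted p = 0.0166), where 4.9% of all genes were called. With only cells of 3000 to 5000 genes above the floor, the Ndufc2 difference was 1.06 with an adjusted p of 0.154, and no gene of all 10690 was called. Another annotated gene, Gm16053, overlaps Ndufc2 on the same strand, and how their reads were divided is not given in the sources used here.

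No other difference passed. At the lower end of complex I, Ndufv3, an accessory subunit of the NADH-binding module, differed by -0.95 ± 0.37 (adjusted p = 0.196). Ndufv3 had pool means of 590 and 507 TPM in progenitor-like and 817 and 844 in excitatory neuron-like cells, without overlap. In complex II, Sdhc, a membrane anchor, had the largest value with 0.57 ± 0.47, and all 4 subunits lay above 0. In complex III, Uqcrfs1, the Rieske iron-sulfur protein, had 0.84 ± 0.40 (adjusted p = 0.301), and Uqcrc2, a core protein, -0.39 ± 0.49. In complex IV values ran from -0.33 ± 0.29 for Cox7a2 to 0.55 ± 0.62 for Cox7a2l. Of the assembly factors, Ndufaf3 had the largest value with 1.45 ± 0.56 (adjusted p = 0.194) and Ndufaf2, the highest in level, had 0.22 ± 0.62. Of the 3 genes outside the chain, Cox4nb had 0.93 ± 0.48, Atp5s 0.35 ± 0.51 and Atp5sl -0.16 ± 0.47.

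For 25 of 84 members the 95% interval of this difference lay within 1 log2 unit on either side of 0, including 8 of 13 in complex IV and 9 of 15 in complex V but 4 of 36 in complex I. For the remaining members the interval reached 1 log2 unit or more on at least one side, so 2 pools do not resolve a 2-fold difference there.

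**Figure D2:**
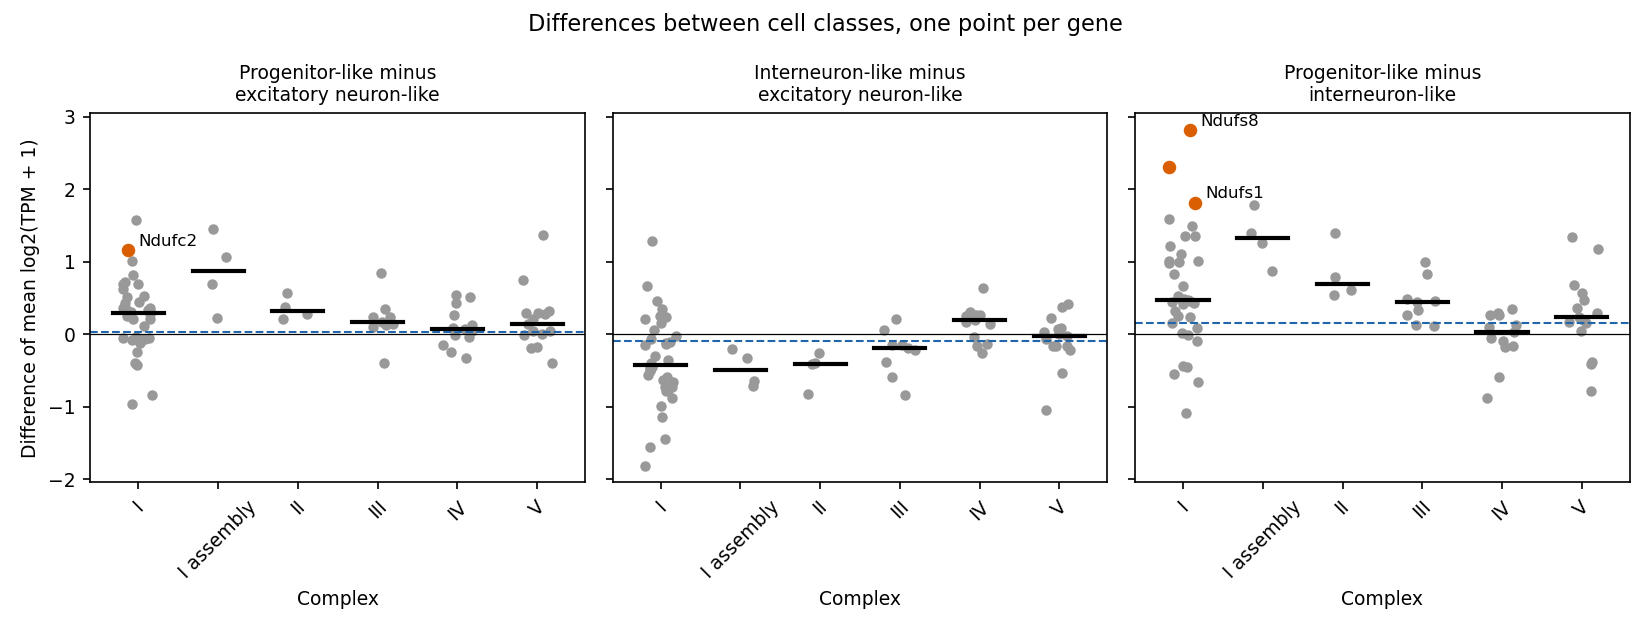
Difference of mean log2(TPM + 1) between cell classes for each member (points), by complex, with the median of each complex (black bar) and the median of all 10690 genes (dashed line); orange points passed an adjusted p of 0.05 and a log2 difference of 1. Ndufc2 is the called member in the left panel, none was called in the middle, and 3 are called in the right panel, with Ndufs8 and Ndufs1 labelled.

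The subunit c genes of ATP synthase differed in how their transcripts were divided. Atp5g1, Atp5g2 and Atp5g3 encode the same mature protein, which forms the rotating ring in the membrane, with different import sequences. Atp5g2 had means of 259 and 331 TPM in the pools of progenitor-like cells, 132 and 165 in excitatory neuron-like cells, and 202 and 164 in interneuron-like cells. All progenitor-like cells had it above the floor, from 24.4 to 840 TPM (median 255). Its progenitor pool means overlapped with those of neither other class, but single cells of the classes overlapped. The log2 difference of 1.37 ± 0.43 between progenitor-like and excitatory neuron-like cells had an adjusted p of 0.102 and was not called. It was called (adjusted p = 0.0252) where profiles were weighted by their number of cells. In that fit 674 of all genes were called higher and 242 lower, instead of 361 and 68. Against interneuron-like cells the log2 difference of Atp5g2 was 1.34 ± 0.43 (adjusted p = 0.0696).

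Atp5g1 was lowest in progenitor-like cells, where Atp5g2 was highest, with 411 and 363 TPM in progenitor-like, 484 and 546 in excitatory neuron-like and 666 and 628 in interneuron-like cells. The progenitor-like cells differed by -0.40 ± 0.32 from the excitatory and by -0.78 ± 0.32 from the interneuron class (adjusted p = 0.152), and neither was called, although the pools did not overlap. Atp5g3 supplied most transcripts, with 1760 and 1680, 1670 and 1690, and 2260 and 2160 TPM. As a share of the sum of the 3 genes, Atp5g2 made up 10.6% and 13.9% in the pools of progenitor-like cells, 5.75% and 6.88% in excitatory neuron-like and 6.45% and 5.57% in interneuron-like cells, while Atp5g3 stayed between 70.4% and 73.1%. Atp5g2 exceeded Atp5g1 in 13 of 37 progenitor-like, 8 of 143 excitatory neuron-like and 3 of 27 interneuron-like cells. Atp5g1 has a near-identical annotated copy, the processed pseudogene Gm10039, which is not among the measured features. How reads were shared between them is not given in the sources used here, so the level of Atp5g1 and these shares carry that uncertainty. Between interneuron-like and excitatory neuron-like cells Atp5g3 differed by 0.42 ± 0.23 (adjusted p = 0.551), Atp5g1 by 0.38 ± 0.32 and Atp5g2 by 0.03 ± 0.43.

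**Figure D3:**
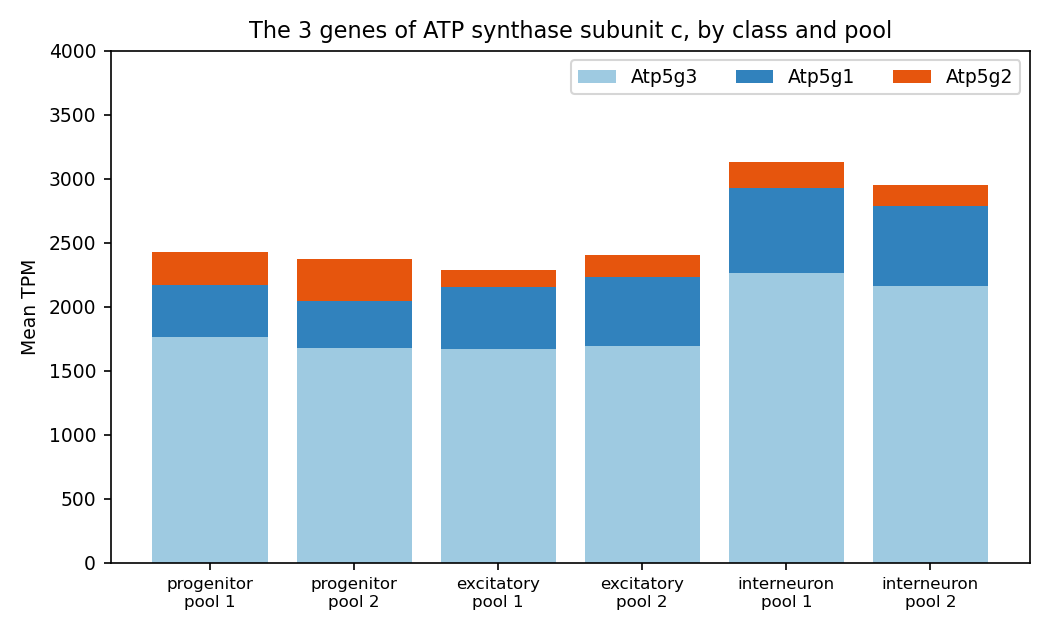
Mean TPM of the 3 genes of ATP synthase subunit c, stacked, for each class and pool. Atp5g2 (top segment) makes up 10.6% and 13.9% of the stack in progenitor-like cells and 5.57% to 6.88% in the other 4 profiles, and the stacks are tallest in interneuron-like cells.

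Between interneuron-like and excitatory neuron-like cells, 0 of 84 members were called, where 0.636% of all genes were. Limma gave 8 members an unadjusted p below 0.05, 3 higher and 5 lower, against 11% of all genes. The members' median log2 difference was -0.16 and that of all genes -0.09, and 28 members lay above 0, against 40.6% of all genes. Pool values did not overlap for 42 of 84 members, against 44.7% of all genes. The complexes differed in sign: the medians were -0.42 (I), -0.41 (II), -0.19 (III), 0.20 (IV) and -0.03 (V). Of complex I, 27 of 36 subunits lay below 0, and of complex IV 9 of 13 lay above. The complex IV median was 0.22 in pool 1 alone and -0.01 in pool 2 alone. On log2 of the mean TPM, where cells with high values weigh more, the members' median turned to 0.09, with 51 above 0, and that of complex I to 0.04, while that of all genes was -0.11.

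The largest values in this comparison fell in complex I. Ndufa5, an accessory subunit of the matrix arm, had pool means of 1100 and 910 TPM in interneuron-like and 546 and 422 in excitatory neuron-like cells, a log2 difference of 1.28 ± 0.43 (adjusted p = 0.299). Ndufs8 lay at the other end with -1.81 ± 0.58 (adjusted p = 0.265). Cox5a, a complex IV subunit, had 1760 and 1620 TPM in interneuron-like cells, 1120 and 983 in excitatory neuron-like and 938 and 905 in progenitor-like cells. Interneuron-like cells were thus the highest in both pools for Cox5a, by 0.64 ± 0.27 against excitatory neuron-like cells (adjusted p = 0.412). In a fit with the progenitor-like class split, the cluster 1 radial glia-like cells differed from interneuron-like cells by -1.14 ± 0.31 in Cox5a (adjusted p = 0.0424). Ndufb10, a membrane arm subunit, differed by -1.75 ± 0.44 (adjusted p = 0.0339), where 7.9% of all genes were called. With cluster 1 alone as the progenitor class, neither was called against interneuron-like cells, and Ndufs8 was the called member. Of all genes, 613 were then called higher and 163 lower in cluster 1. In the other complexes the largest values were -1.04 ± 0.40 for Atp5d, the delta subunit of the ATP synthase stalk, -0.84 ± 0.49 for Uqcrc2, 0.22 ± 0.33 for Uqcrb, -0.83 ± 0.47 for Sdhc and -0.25 ± 0.39 for Cox5b, and none was called. Ndufaf1 had -0.71 ± 0.49.

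Between progenitor-like and interneuron-like cells, 3 of 84 members were called, all higher in progenitor-like cells, and these include Ndufs8 and Ndufs1, which encode core subunits of complex I. Over all genes 9.31% were called (7.59% higher and 1.72% lower in progenitor-like cells), and 3 of 84 is a lower share. With the pool as a block, which pairs classes of the same embryos, 4 members were called, Ndufa1 being added. Of all genes, 978 were then called higher and 231 lower, instead of 811 and 184. The members' median log2 difference was 0.39 and that of all genes 0.15, with 68 members above 0 against 60% of all genes. Limma gave 26 members an unadjusted p below 0.05, against 26.1% of all genes, and pool values did not overlap for 43 members, against 50.2%. By complex the medians were 0.48 (I), 0.70 (II), 0.45 (III), 0.03 (IV, and -0.26 in pool 1 alone) and 0.24 (V), and 1.33 for the assembly factors. On log2 of the mean TPM the members' median was 0.00, against 0.04 for all genes, and no member was called. Of all genes, 407 were called higher and 180 lower on that scale.

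Ndufs8, which carries iron-sulfur clusters on the electron path to ubiquinone, lies at chr19:3908863-3912774 on the minus strand, with no overlapping gene and no near-identical copy in the annotation. Its mean level was 352 and 404 TPM in the pools of progenitor-like cells, 286 and 252 in excitatory neuron-like and 123 and 240 in interneuron-like cells. Single cells ran from 1.75 to 1440 TPM (median 318), from 1.48 to 810 (255) and from 1.76 to 595 (78.7). Progenitor-like cells were the highest and interneuron-like cells the lowest in both pools. The log2 difference between these classes was 2.82 ± 0.58 (SE, n = 2 pools, adjusted p = 0.0139).

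The classes differed mainly in how many cells had Ndufs8 above the floor. This was so in 35 of 37 progenitor-like cells (94.6%, exact 95% interval 81.8 to 99.3), 124 of 143 excitatory neuron-like cells (86.7%, 80 to 91.8) and 15 of 27 interneuron-like cells (55.6%, 35.3 to 74.5); such intervals cover counting error only. Among the cells that had it, the median level was 318, 287 and 310 TPM, nearly the same in the 3 classes. In interneuron-like cells 7 of 16 had it in pool 1 and 8 of 11 in pool 2.

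Ndufs1, the largest core subunit, was detected in fewer cells. It lies at chr1:63143596-63176833 and overlaps Eef1b2 on the other strand. Its mean was 114.2 and 125.5 TPM in the pools of progenitor-like cells and 89.3 and 76.3 in those of interneuron-like cells, with 134 over both pools of excitatory neuron-like cells, and it was above the floor in 67.6%, 67.8% and 44.4% of cells. The median of the cells that had it was 170.3, 147.2 and 113.2 TPM. The log2 difference between progenitor-like and interneuron-like cells was 1.82 ± 0.49 (adjusted p = 0.0397), and that between progenitor-like and excitatory neuron-like cells was 0.37 ± 0.49. The call was kept in 8 of 16 alternatives, with values from 0.53 to 2.47; the lowest is that on log2 of the mean TPM.

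In cells of 3000 to 5000 genes above the floor, no member was called in this comparison: the log2 differences were 2.39 for Ndufs8 (adjusted p = 0.133) and 2.04 for Ndufs1 (adjusted p = 0.161). Of all genes, 98 were then called higher and 91 lower in progenitor-like cells, instead of 811 and 184, and the members' median difference fell to 0.11. These profiles held 10 and 12 progenitor-like and 10 and 9 interneuron-like cells.

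**Figure D4:**
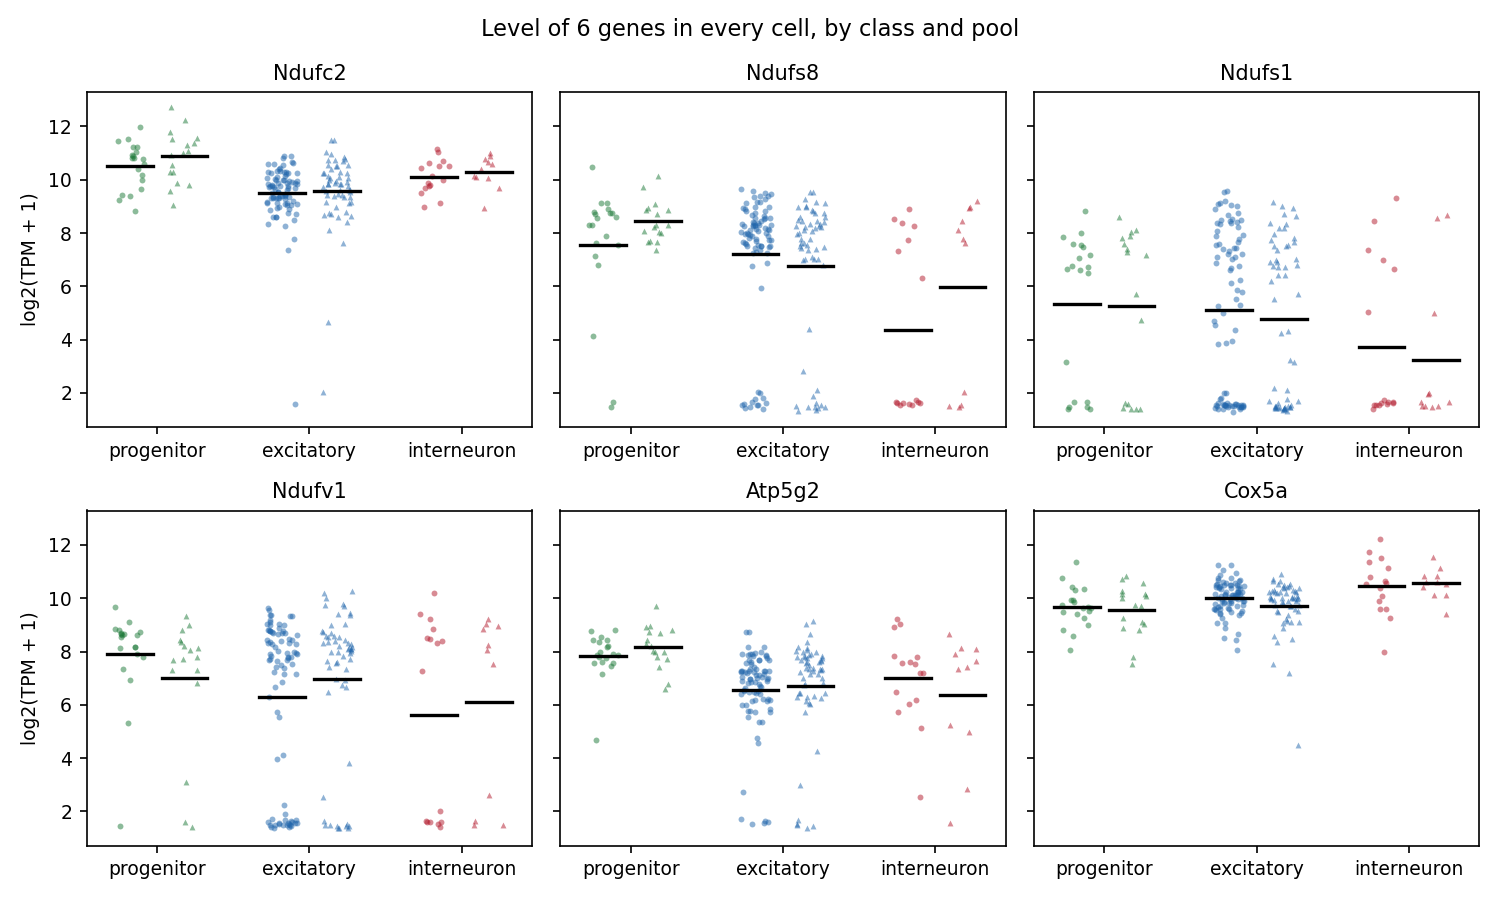
Level of 6 members in every cell, as log2(TPM + 1), by class; circles are pool 1, triangles pool 2, and black bars the pool means. Ndufs8, Ndufs1 and Ndufv1 fall into cells at the floor (near the bottom) and cells with signal, with the share of cells at the floor largest in interneuron-like cells (12 of 27 for Ndufs8 lie there). Ndufc2 and Cox5a have signal in nearly all cells. Atp5g2 has signal in all progenitor-like cells and lies at the floor in a few cells of the other classes.

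All 7 nuclear-encoded core subunits of complex I, a grouping made after these calls were seen, lay above 0 between progenitor-like and interneuron-like cells, from 0.42 to 2.82 with a median of 1.59. Of the 29 accessory subunits, 22 lay above 0, with a median of 0.45. The core group holds called members that prompted it, Ndufs8 and Ndufs1 among them. Its higher median is therefore not separate from those calls, and the contrast with accessory subunits was not tested. Between interneuron-like and excitatory neuron-like cells the medians were -0.77 and -0.30, and all 7 core subunits lay below 0 on the log2 scale. In mean TPM, Ndufs3, Ndufs7 and Ndufv2 were highest in interneuron-like cells, and the other core subunits were lowest there. Ndufs7 had 651, 581 and 703 TPM in progenitor-like, excitatory neuron-like and interneuron-like cells. Most core subunits were above the floor in at least 150 but under 210 cells. All genes of that range had medians of 0.46 (progenitor-like against interneuron-like) and -0.41 (interneuron-like against excitatory neuron-like). Ndufv1, the flavin-carrying core subunit, had 1.59 ± 0.49 between progenitor-like and interneuron-like cells (adjusted p = 0.0643) and was above the floor in 91.9% and 66.7% of cells. Its pool means were 336 and 246.7 TPM in progenitor-like and 278.1 and 258.1 in interneuron-like cells, which overlap, and the median of the cells that had it was 292.6 and 359.3 TPM.

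The members were also grouped by the number of cells that had them. The 51 members above the floor in 210 or more cells had median differences of 0.12 (progenitor-like against excitatory neuron-like cells), -0.07 (interneuron-like against excitatory neuron-like) and 0.26 (progenitor-like against interneuron-like). The 24 members detected in at least 150 but under 210 cells had 0.37, -0.53 and 0.85, and all genes of that range 0.00, -0.41 and 0.46. The 9 members detected in fewer cells had 0.37, -0.33 and 1.26, and all genes of that range 0.05, -0.06 and 0.13. The progenitor-like against interneuron-like medians of the members thus rose from group to group as detection fell, and the others did not. The number of members above the floor in a cell followed the number of all genes above the floor, with Pearson r between 0.725 and 0.914 in the 6 class and pool groups of 11 to 85 cells, which share the measure of detection. The members' share of TPM did not follow it in one direction (r from -0.492 to 0.172). A median of 78 members was above the floor in progenitor-like, 75 in excitatory neuron-like and 71 in interneuron-like cells.

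**Figure D5:**
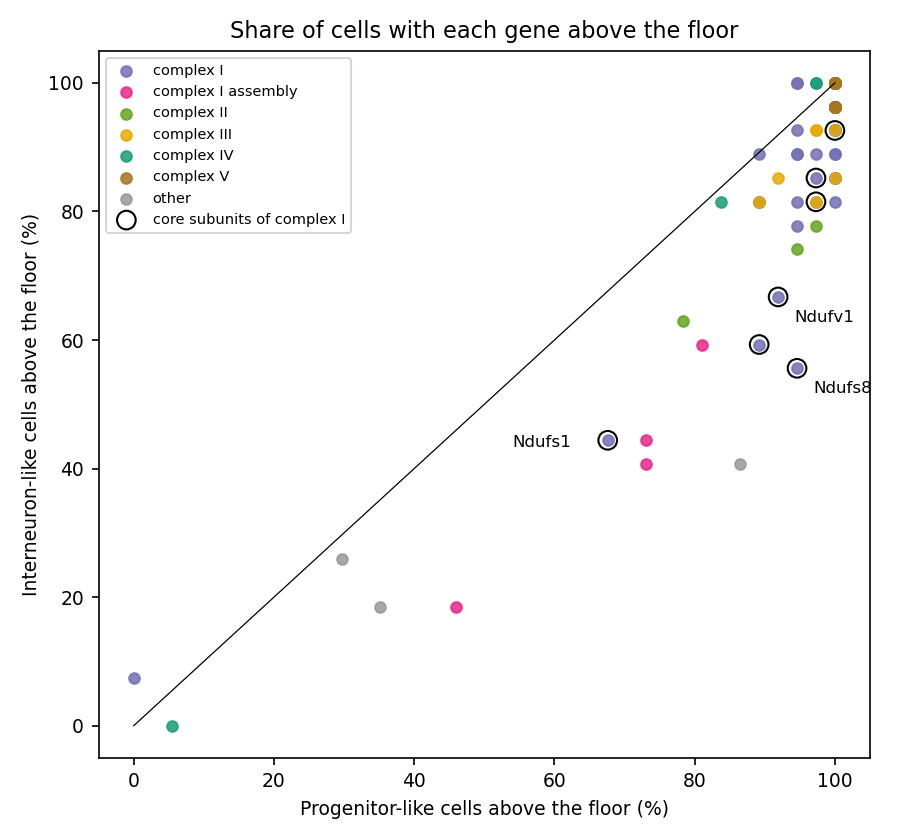
Percent of progenitor-like cells (x axis) and of interneuron-like cells (y axis) with each member above the floor; colours mark the complex, open circles the 7 core subunits of complex I, and the line equal shares. Ndufs8 (94.6% and 55.6%), Ndufs1 and Ndufv1 lie below the line, and most members of complexes IV and V crowd near 100% on both axes.

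One complex I subunit was nearly absent from the table under its own symbol. Ndufs5 had a mean of 7.39 TPM and was above the floor in 13 of 221 cells, none of them progenitor-like. BC002163, annotated as a processed pseudogene of at least 95% identity to Ndufs5, had a mean of 639 TPM and was above the floor in 219 cells. The level of BC002163 is in the range of other complex I subunits, and it differed little between classes, with means of 605, 660 and 643 TPM in progenitor-like, excitatory neuron-like and interneuron-like cells (log2 differences of -0.18 ± 0.41 and -0.41 ± 0.41 against excitatory neuron-like cells, adjusted p = 0.877 and 0.781). How reads were shared between the pair is not given in the sources used here, so the Ndufs5 values are uncertain. Cox7c, a small complex IV subunit, had 156 TPM beside 228 TPM for its copy Gm10012, and is uncertain in the same way. In all, 27 of 84 members share 200 or more bases at 95% identity with another annotated gene, and 39 overlap another gene.

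No member was called between the 16 cluster 1 radial glia-like cells and the other 21 progenitor-like cells. Limma called 0 of 84, where 0.758% of all genes were called, and 5 members had an unadjusted p below 0.05, against 14.9% of all genes. The members' median difference was -0.02, with 42 above 0, against 42.4% of all genes.

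Other genes of energy supply, inside and outside mitochondria, were set beside the members, from lists drawn up with earlier results known. Between progenitor-like and interneuron-like cells, 13 of 76 mitochondrial ribosomal proteins were called higher and none lower, with a median log2 difference of 1.04. Over all genes 7.59% were called higher and the median was 0.15. It was 0.46 for all genes above the floor in at least 150 but under 210 cells. In cells of 3000 to 5000 genes above the floor, 98 of all genes were called higher instead of 811, and these lists were not counted there. Of 13 genes of the tricarboxylic acid cycle 2 were called higher, Fh1 (1.81 ± 0.48) and Idh3b (1.81 ± 0.47), with a median of 1.05. Of 21 assembly factors outside the name rule 2 were called higher: Cox17, the copper chaperone of complex IV (3.21 ± 0.45), and Sdhaf1, for complex II (2.07 ± 0.48), a share near that of all genes. Of 13 genes of electron entry and carriers Etfa and Coq7 were called higher, with 3.17 ± 0.52 and 2.23 ± 0.49. Of 15 glycolytic genes 5 were called higher, Aldoa, Aldoc, Ldha, Pgk1 and Tpi1, with values from 1.93 ± 0.48 for Pgk1 to 3.85 ± 0.47 for Ldha. Of 9 genes of ATP and phosphate exchange 3 were called higher, among them Slc25a5, the adenine nucleotide carrier that exports ATP from mitochondria (1.88 ± 0.34).

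Between progenitor-like and excitatory neuron-like cells fewer of these genes were called, all of them higher in progenitor-like cells, where 3.38% of all genes were: Slc25a5 (1.90 ± 0.34, adjusted p = 0.015), Ckb, a creatine kinase (1.79 ± 0.36, adjusted p = 0.0212), Aldoc (3.81 ± 0.53), Etfa (2.08 ± 0.52) and 1 of 76 mitochondrial ribosomal proteins, Mrpl17. Limma called 0 of 13 tested regulators of respiratory genes in each of the 3 comparisons, with 1, 0 and 3 of them at an unadjusted p below 0.05, where the shares over all genes were 17.7%, 11% and 26.1%. It also called 0 of 8 genes of pyruvate entry, with 1, 0 and 2 of them at an unadjusted p below 0.05. Slc25a5 had a mean of 1550 TPM in progenitor-like, 554 in excitatory neuron-like and 657 in interneuron-like cells. Between interneuron-like and excitatory neuron-like cells the called gene of these lists was Ldha, lactate dehydrogenase A, which was lower in interneuron-like cells (-2.48 ± 0.47, adjusted p = 0.0442).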

How the data were processed

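The deposited table of TPM values for 221 cells was used as the authors made it: per the submitters' processing notes the tools were Cufflinks 2.2.1, Bowtie2 2.2.6 and TopHat2 2.0.14 and the build mm10, with their roles and the annotation not given in the sources used here. Every cell adds up to 1000000 TPM, and values without signal sit at one floor per cell.

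Cells were grouped by Ward linkage on 10 principal components of 85 standardized markers (log2(TPM + 1)), 10 clusters were taken, and each was named from at least 3 of its markers above the floor in 50% of cells. Mean log2(TPM + 1) per class and pool (6 profiles) was compared with limma 3.58.1 in R 4.3.3 (trend and robust variances, two-sided, Benjamini-Hochberg over the 10690 genes detected in 10 or more cells, markers left out). Errors are standard errors. A fold on this scale understates the change of genes that are low in every cell. For genes at the floor in part of the cells it can exceed the fold of mean TPM. Ndufs8, between progenitor-like and interneuron-like cells, had 2.82 on this scale and 1.13 on log2 of the mean TPM. The fit was tested on simulated data. Copies were searched with BLAST 2.17.0. The 3 classes of a pool stem from the same embryos, which pairs them. Between classes, deviations from the class mean correlated by 0.057, 0.0381 and 0.00575 between classes, and the pool was left out of the model.

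Members, lists and tests were chosen with earlier results of these data known. Genes named with values are the called members (1 is not reported here), the highest member and the largest differences of each complex, and the isoform families; Ndufb10, Ndufv1, Cox7c, Ndufs5, the copies and the genes of other lists were chosen after their values were seen, as were the core subunits, the split of the progenitor-like class and the window of 3000 to 5000 genes. Alternatives were another pseudocount, filters, scalings, classes, units, depth, the pool as a block and each pool left out.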

Additional observations from a re-analysis of the deposited data

How the results depend on the processing

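Counts of called members and complex medians of the log2 difference rest on 2 pools, 37, 143 and 27 cells and unknown depth, and no called difference changed sign under any alternative run. Of the values for single named genes, 1230 stayed on their side of the threshold under the alternatives, 25 lost a call and 1 gained it. Of the 1256 values, 81 had another sign than the reported one, all for differences that were not called, such as Ndufa4 and Atp5b between progenitor-like and excitatory cells. Among complex medians, shares and counts of called members, 397 were the same and the others, given below, moved. With pool as a replicate block 1, 0 and 4 members were called (progenitor-like against excitatory, interneuron-like against excitatory, progenitor-like against interneuron-like), Ndufa1 being added in the last, and of all genes 429, 48 and 978 were called higher and 110, 70 and 231 lower. The block moved no complex median. The cause of each change below was not tested.

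The count of called members was 1 for progenitor-like against excitatory cells, and it was 0 with no filter on low values, with marker gates, with cells between the quartiles of genes above the floor and with cells of 3000 to 5000 genes, and 2 with profiles weighted by cells. Over all genes, 361 were called higher and 68 lower in the main fit. With gates, between the quartiles and with 3000 to 5000 genes, no gene at all was called, so the 0 there is not particular to the members. With no filter 253 of all genes were called higher and 42 lower, and with weights 674 and 242. For progenitor-like against interneuron-like cells the count of 3 became 1 with no filter, with quantile normalization, with weights and with cluster 1 alone (16 radial glia-like cells). It became 0 on log2 of the mean TPM, with gates and with 3000 to 5000 genes, and 6 after subtraction of the floor.

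For progenitor-like against excitatory cells, the medians on log2 of the mean TPM were 0.049 (I), 0.047 (II), 0.027 (IV) and 0.038 (V). Other values were 0.34 (III) and 0.099 (IV) with cells between the quartiles, 0.35 (III) and 0.084 (V) with pool and suffix as units, 0.042 (IV) and 0.053 (V) with gates, 0.14 (IV) with quantile normalization, 0.11 (IV) with cluster 1 alone, and 0.099 (IV) and 0.042 (V) with 3000 to 5000 genes. Leaving out a pool gave 0.13 to 0.27 for complex I.

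For interneuron-like against excitatory cells, the medians on log2 of the mean TPM were 0.035 (I), 0.084 (III) and 0.12 (V). They were -0.18 (I), -0.049 (III) and 0.13 (V) with quantile normalization, -0.16 (I), -0.33 (III) and 0.033 (V) with gates, and 0.13 (III), 0.40 (IV) and 0.12 (V) with 3000 to 5000 genes. Complex III had -0.28 after subtraction of the floor and -0.025 with pool and suffix as units, and complex V -0.0798 with weights. Leaving out a pool gave -0.18 to -0.0802 (III), -0.0105 to 0.22 (IV) and -0.0897 to -0.0176 (V).

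For progenitor-like against interneuron-like cells, the medians of complexes I, II and III were 0.29, 0.51 and 0.26 with a pseudocount of 10, -0.02, 0.12 and -0.0295 on log2 of the mean TPM (complex V 0.059), 0.17, 0.47 and 0.19 with quantile normalization, and 0.64, 0.90 and 0.53 after subtraction of the floor. They were 0.31, 0.50 and 0.72 with gates, 0.62, 0.88 and 0.28 with pool and suffix as units, and 0.32, 0.83 and 0.082 with 3000 to 5000 genes. Complex II had 0.49 with cluster 1 alone. Complex III had 0.39 with weights, 0.39 with radial glia-like clusters and 0.35 with cluster 1 alone. Leaving out a pool gave 0.45 to 0.60 (I), 0.92 to 1.01 (II), 0.35 to 0.36 (III) and -0.26 to 0.053 (IV).

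Shares of TPM moved by little. After subtraction of the floor they were 2.31% (I), 0.185% (II) and 1.59% (IV) in progenitor-like cells, 2.1% (I), 0.182% (II), 0.665% (III), 1.52% (IV) and 1.36% (V) in excitatory, and 0.169% (II) and 1.48% (V) in interneuron-like cells. With gates they were 2.14% (I), 0.162% (II) and 1.44% (IV) in progenitor-like and 1.99% (I) and 0.626% (III) in excitatory cells. With cells between the quartiles they were 0.199% (II) and 1.44% (V) in progenitor-like and 1.97% (I), 0.628% (III) and 1.41% (IV) in excitatory cells. With 3000 to 5000 genes they were 0.186% (II, progenitor-like), 1.44% (IV, excitatory) and 0.146% (II, interneuron-like), and with cluster 1 alone 2.29% (I) and 0.169% (II) in progenitor-like cells.

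Of the called genes, Ndufc2 kept its call in 13 of 17 alternatives, Ndufs8 in 13 of 16 and Ndufs1 in 8 of 16, each with the same sign. On log2 of the mean TPM the values were 1.13 for Ndufs8 and 0.53 for Ndufs1. The alternative with cells low in Neurod6 left too few cells for a progenitor-like profile, and the one between the quartiles too few for an interneuron-like profile. The limit on Neurod6, cluster 1 alone, the addition of the globin-rich cluster and the window of 3000 to 5000 genes were chosen after seeing the data, and the fit with the 3 classes alone is the one reported.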
